A study of Mus musculus with 9 samples.

Results

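Mast cell genes were followed in laser dissected layers of the mouse eye, with 8 genes that mark this cell type: the proteases *Cpa3*, *Mcpt4*, *Cma1*, *Tpsb2* and *Tpsab1*, the IgE receptor chains *Fcer1a* and *Ms4a2*, and the histamine-forming enzyme *Hdc*. They were taken by symbol from the gene names in the array files, where all 8 were found, on 9 of 39429 probes and among 31710 genes. Expression had been measured on dual-colour Agilent arrays in the choroid (CH), the retinal pigment epithelium (RPE) and the photoreceptors (PR) of untreated female C57BL/6 mice (C57BL/6JOlaHsd per the study's methods), with 3 arrays per tissue. The labels give an age of 6 months with a range of 2 weeks, the study's methods a slightly younger age, and each sample was dissected from 1 whole eye. RNA of the tissue was amplified and labelled with Cy5, and a common reference of choroid and RPE RNA from mice of the same strain, sex and age carried Cy3 on every array, so each value is the log2 ratio of tissue over reference, log2(Cy5/Cy3). No dyes were swapped.

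Mast cells are granule-filled immune cells that settle in tissues along vessels, and the choroid, the vascular coat behind the RPE, is known to hold them, whereas the healthy retina is not. Their granules are packed with proteases and histamine, bound to a matrix of serglycin and heparin, and are released when IgE on the high-affinity receptor FcεRI is cross-linked by antigen. The growth factor receptor Kit keeps mast cells alive, and GATA2 and MITF are the transcription factors best known for their identity.

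The promoters of the genes that varied together, *Cpa3*, *Mcpt4*, *Cma1* and *Fcer1a*, are shown with that of *Hdc*, which ran the other way. Each is the RefSeq sequence of the 250 bases before the annotated start on GRCm38.p6, 5′ to 3′ in gene direction, with every GATAA in capitals, read on both strands (TTATC on the other strand), since GATA factors bind this core.
Cpa3 (chr3:20242182-20242431, minus strand): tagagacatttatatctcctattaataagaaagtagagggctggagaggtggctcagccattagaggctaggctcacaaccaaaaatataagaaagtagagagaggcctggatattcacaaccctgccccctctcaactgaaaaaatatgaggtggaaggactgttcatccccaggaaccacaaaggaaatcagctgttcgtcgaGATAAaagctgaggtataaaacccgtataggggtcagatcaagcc
Mcpt4 (chr14:56062311-56062560, minus strand): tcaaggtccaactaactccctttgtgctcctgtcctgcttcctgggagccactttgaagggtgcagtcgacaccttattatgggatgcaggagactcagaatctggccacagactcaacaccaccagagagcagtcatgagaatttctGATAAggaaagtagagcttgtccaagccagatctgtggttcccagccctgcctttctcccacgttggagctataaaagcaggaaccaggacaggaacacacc
Cma1 (chr14:55944676-55944925, minus strand): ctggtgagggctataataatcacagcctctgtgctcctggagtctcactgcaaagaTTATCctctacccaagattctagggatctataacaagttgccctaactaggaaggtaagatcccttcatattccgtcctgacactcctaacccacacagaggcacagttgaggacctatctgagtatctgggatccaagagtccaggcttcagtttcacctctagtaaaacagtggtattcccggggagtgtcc
Fcer1a (chr1:173227230-173227479, minus strand): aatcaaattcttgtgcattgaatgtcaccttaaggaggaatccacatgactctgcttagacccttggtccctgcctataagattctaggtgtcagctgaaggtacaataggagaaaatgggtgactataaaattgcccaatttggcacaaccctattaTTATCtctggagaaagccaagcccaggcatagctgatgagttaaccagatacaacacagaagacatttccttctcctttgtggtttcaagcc
Hdc (chr2:126618679-126618928, minus strand): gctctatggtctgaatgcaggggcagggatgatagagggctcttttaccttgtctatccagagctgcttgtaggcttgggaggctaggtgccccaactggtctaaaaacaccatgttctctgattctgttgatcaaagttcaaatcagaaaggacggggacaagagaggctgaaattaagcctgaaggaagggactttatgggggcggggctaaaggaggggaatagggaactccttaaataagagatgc

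Promoters of 6 of the 8 genes were in the reference table, all but the tryptases *Tpsb2* and *Tpsab1*, and 5 of the 6 held GATAA. Of all 32851 promoters in the table, 22.6% held it within the same 250 bases. It began 45 bases before the start in *Cpa3* and 102 bases before it in *Mcpt4*, and on the other strand 194 bases before the start in *Cma1* and 92 bases before it in *Fcer1a*. *Ms4a2* held it 3 times, and *Hdc* did not hold these letters in this window. TATAA, searched on both strands (TTATA), was present in 22.8% of all promoters and lay 31 bases before the start of *Cpa3* and 32 bases before that of *Mcpt4*. It also occurred further upstream in *Cpa3*, *Cma1* and *Fcer1a*. The E-box CANNTG, which reads the same on both strands and was held by 66.2% of all promoters, occurred in *Cpa3*, *Cma1*, *Fcer1a* and *Hdc*. No match of these motifs overlapped another, and a match is only a description of the letters.

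The chymase genes *Cma1* and *Mcpt4* lie in a cluster of related proteases on chromosome 14, with *Cma2*, *Mcpt1*, *Mcpt2*, *Mcpt9* and *Mcpt8* between or beside them, and *Tpsab1* and *Tpsb2* are neighbours on chromosome 17. The probe of *Cma1* (NM_010780) and those of the tryptases *Tpsb2* (the dimmer of its 2 probes, NM_010781) and *Tpsab1* (NM_031187) are shown, because a probe against a gene with close relatives can take up their RNA.
Cma1: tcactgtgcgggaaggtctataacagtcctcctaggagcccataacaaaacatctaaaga
Tpsb2: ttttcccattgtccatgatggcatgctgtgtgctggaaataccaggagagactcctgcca
Tpsab1: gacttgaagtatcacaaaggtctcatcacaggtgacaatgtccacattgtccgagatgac

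Per the array files, which use the mouse assembly mm9, the *Cma1* probe of 60 bases aligned over 1060 bases, 56561491 to 56562550 of chromosome 14, and so crosses an intron. The *Tpsab1* probe lay at 25480640 to 25480699 of chromosome 17, the dimmer *Tpsb2* probe at 25504493 to 25504552 and the brighter at 25504819 to 25504878 of the same chromosome. The longest run of bases that the *Tpsab1* probe shared with the dimmer *Tpsb2* probe was 8 bases, and with the brighter 6 bases. The other probes lay on chromosome 3 for *Cpa3* (20115674 to 20115733), 14 for *Mcpt4* (56678589 to 56678648), 1 for *Fcer1a* (175151438 to 175151497), 19 for *Ms4a2* (11691701 to 11691760) and 2 for *Hdc* (126419516 to 126419575). Uptake of related RNA by any probe was not tested.

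The layers carried their own markers. Of 6 RPE markers 4 were called in favour of the RPE over the CH, all 7 rod markers were called higher in the PR than in either other tissue, and all 6 fibroblast markers were called in favour of the CH over the RPE. Of 6 endothelial markers 0 were called between the CH and the RPE by limma and 0 had an unadjusted p below 0.05, and 5 of 6 were called higher in each of them than in the PR. Between 62.1% and 71.2% of probes were well above background in Cy5 on 8 arrays, and RPE replicate 2 stood apart at 91.7%. Replicates 2 of all tissues were scanned on a slide of their own (slide 3), replicates 1 and 3 of the CH and the RPE on slide 2, and those of the PR on slide 1. Per the study's methods the RPE was cut away before the CH was dissected, yet the CH samples held RNA of RPE markers, with a summed Cy5 signal from 1137499 to 1452462 against 1589101 to 1749186 in the RPE samples. The samples are separate eyes per the study's methods, but the labels do not tie them to separate animals.

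By mean ratio over the 3 tissues, *Cpa3*, *Mcpt4*, *Cma1* and *Fcer1a* were highest in the CH and lowest in the PR. *Hdc* was highest in the PR, and *Tpsb2* was measured in every tissue and close to the reference. *Fcer1a* was placed by ratios from signal mostly not above background, as its probe was well above background on 1 CH array alone. The other two, *Tpsab1* and *Ms4a2*, were well above background on 1 array and on 0 arrays, and their ratios give no level. A gene was called when its fold change (FC) was over 2.5 and its Benjamini-Hochberg (B-H) adjusted p-value over all probes, from limma, was below 0.01. Against the PR, 4 of the 8 genes were called higher in the CH, where 12.8% of all genes were, and 1 was called higher in the PR, where 6.03% of all genes were. The 4 include *Fcer1a*, which was not well above background on any PR array. When only probes above background were tested, *Fcer1a*, *Tpsab1* and *Ms4a2* dropped out and 5 genes were left. Of these, 4 were called in either direction between the CH and the PR, in place of 5 of the 8. Against the RPE, 0 of the 8 genes were called in either direction by limma, with 1.76% of all genes called higher in the CH and 0.18% higher in the RPE. At an unadjusted limma p below 0.05 there were 4 of the 8, of which 3 were higher in the CH, and no share of all genes was taken at this threshold. Between the RPE and the PR, 1 gene of 8 was called higher in the RPE (10.9% of all genes) and 1 higher in the PR (5.2% of all genes). The median difference of the 8 genes was 0.41 for CH minus RPE and 0.96 for CH minus PR on the log2 scale, against −0.03 and −0.05 over all genes. For RPE minus PR it was 0.50, and the median of all genes was close to 0.

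**Figure D1:**
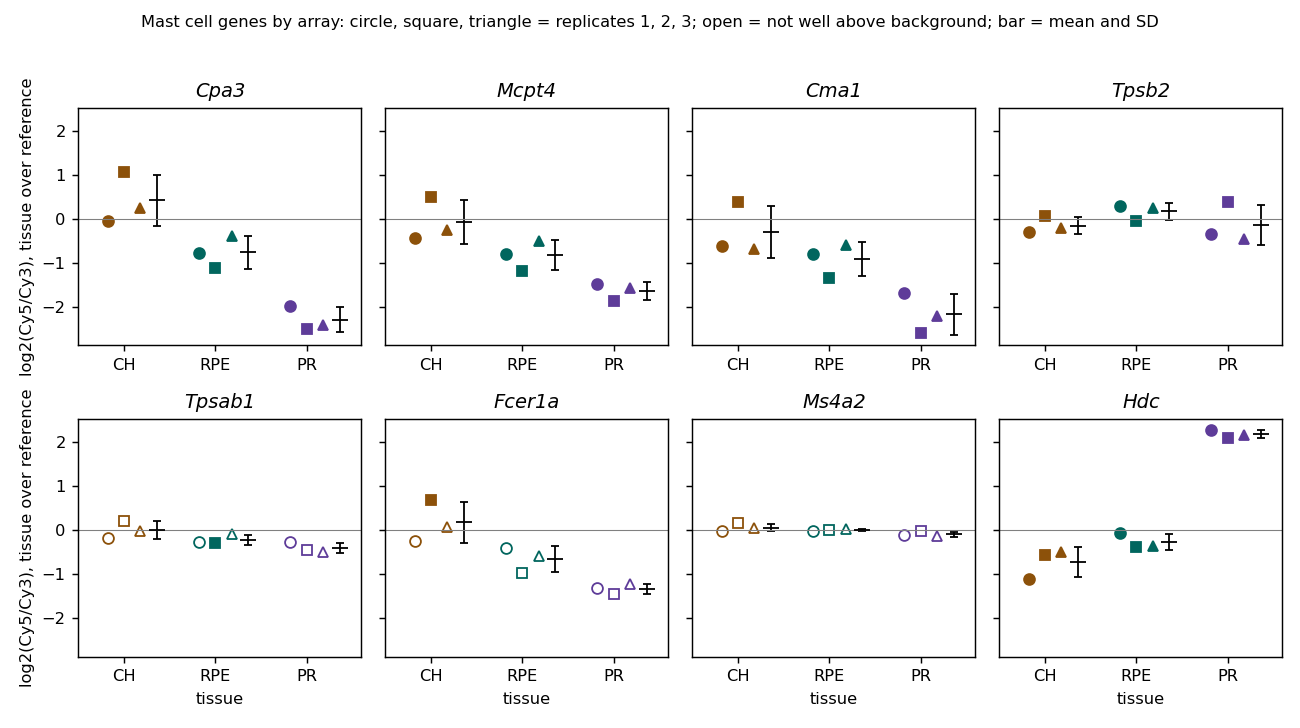
The log2 ratio of tissue over reference (y axis) of each of the 8 genes on every array, by tissue (x axis). Circles, squares and triangles are replicates 1, 2 and 3, open symbols were not well above background in Cy5, and bars give the mean and SD of the 3 arrays. The means of *Cpa3*, *Mcpt4*, *Cma1* and *Fcer1a* step down from CH to RPE to PR. The CH and RPE arrays of *Cma1* overlap, and *Fcer1a* was well above background on 1 CH array alone. *Hdc* lies at 2.10 or more in the PR and below 0 elsewhere.

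*Cpa3* encodes the carboxypeptidase of mast cell granules, among the most mast cell-restricted transcripts known. Its log2 ratio was −0.06, 1.06 and 0.25 on the 3 CH arrays, −0.78, −1.13 and −0.39 on the RPE arrays, and −1.98, −2.51 and −2.42 on the PR arrays. The tissues did not overlap, and the order was CH above RPE above PR. The mean was 0.42 ± 0.58 (SD, n = 3) in the CH, −0.77 ± 0.37 in the RPE and −2.30 ± 0.29 in the PR. *Cpa3* was called higher in the CH than in the PR (difference 2.72, SE 0.29, FC 6.58, limma B-H adjusted p = 2.35e-05) and also when the RPE was set against the PR (difference 1.53, SE 0.29, FC 2.89, adjusted p = 0.00139). The call between the RPE and the PR was lost with the slide as a block (1.88, adjusted p = 0.0147). The step from RPE to CH (difference 1.19, SE 0.29, FC 2.27, adjusted p = 0.0163) passed neither threshold. In Cy5 the signal above background ran from 1880 to 5252 in the CH, from 1107 to 1378 in the RPE and from 186 to 329 in the PR, and was well above background on all 9 arrays. The reference in Cy3 stayed between 1099 and 1296.

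*Mcpt4* encodes a chymase of connective tissue mast cells. It read −0.44, 0.50 and −0.26 in the CH, −0.80, −1.18 and −0.51 in the RPE, and −1.48, −1.87 and −1.58 in the PR. Here too the tissues did not overlap, and the order was that of *Cpa3*. *Mcpt4* was called higher in the CH than in the PR (difference 1.58, SE 0.25, FC 2.98, limma B-H adjusted p = 0.000387), a call that fell below the fold threshold without CH replicate 2 (1.29, adjusted p = 0.000582). Neither the step from RPE to CH (0.76, SE 0.25, adjusted p = 0.055) nor that from PR to RPE (0.81, SE 0.25, adjusted p = 0.0209) was called.

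*Cma1* encodes the other chymase of mouse connective tissue mast cells, a protease with elastase activity in rodents. It read −0.63, 0.37 and −0.68 in the CH, −0.81, −1.34 and −0.59 in the RPE, and −1.68, −2.61 and −2.22 in the PR. The CH and RPE arrays overlapped, and all PR arrays were below both. The mean was −0.32 ± 0.59 in the CH, −0.91 ± 0.39 in the RPE and −2.17 ± 0.47 in the PR (SD, n = 3), and CH and RPE did not differ beyond their spread (difference 0.60, SE 0.33, limma B-H adjusted p = 0.24). *Cma1* was called higher in the CH than in the PR (1.86, SE 0.33, FC 3.63, adjusted p = 0.000793). From PR to RPE the adjusted p passed but the fold did not (1.26, SE 0.33, FC 2.39, adjusted p = 0.0091).

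The tryptases, which form the tetrameric protease of mast cell granules, were not called between any tissues. *Tpsb2* was well above background everywhere at its brighter probe and read −0.31, 0.05 and −0.21 in the CH, 0.29, −0.05 and 0.25 in the RPE, and −0.36, 0.37 and −0.47 in the PR. All 3 tissues overlapped, and the limma B-H adjusted p-values were between 0.247 and 0.985. The reference itself moved at this probe: Cy3 ran from 447 to 574 on the 3 arrays of slide 3 and from 761 to 1178 on the other 6. At the dimmer *Tpsb2* probe, which was well above background in Cy5 on 4 of 9 arrays, no ratio was below −0.34 or above 0.09. The probes of *Tpsb2* differed in sign between the CH and the RPE, with −0.32 at the brighter and 0.21 at the dimmer, neither of them called.

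*Tpsab1* is listed as a transcribed pseudogene in the RefSeq table of the C57BL/6J genome, and C57BL/6 mice are known to carry a splice defect in this gene. Its probe was well above background in Cy5 only on RPE replicate 2, the array on which most probes were. It read −0.19, 0.21 and −0.02 in the CH, −0.27, −0.30 and −0.10 in the RPE, and −0.28, −0.45 and −0.50 in the PR. The CH arrays lay above all PR arrays, by a mean of 0.41 (SE 0.12, FC 1.33, limma B-H adjusted p = 0.0163), which was not a call. No bound on a fold could be given for *Tpsab1*.

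*Fcer1a* and *Ms4a2* encode the α and β chains of the high-affinity IgE receptor, which bind IgE and amplify its signal. *Fcer1a* read −0.24, 0.69 and 0.07 in the CH, −0.40, −0.98 and −0.58 in the RPE, and −1.33, −1.45 and −1.22 in the PR. The tissues did not overlap and kept the order of *Cpa3*, but the probe was well above background in Cy5 on CH replicate 2 alone. *Fcer1a* was called higher in the CH than in the PR (difference 1.51, SE 0.23, limma B-H adjusted p = 0.000285). Because no PR array was above background, the measured fold is replaced by a bound from the Cy5 channel, at least 1.3-fold. The bound for CH over RPE was at least 1.48-fold (difference 0.83, SE 0.23, adjusted p = 0.0277, not called), and both bounds rest on a CH mean of which only 1 array was measured. The bound against the PR is below FC 2.5, so the call of *Fcer1a* rests on ratios from signal that was mostly not above background. It was also lost without CH replicate 2 (1.25, adjusted p = 0.000409). *Ms4a2* was not well above background in Cy5 or in Cy3 on any of the 9 arrays, and its ratios, from −0.14 to 0.15, give no order of the tissues.

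*Hdc* encodes histidine decarboxylase, the enzyme that makes histamine from histidine in mast cells, in basophils and in histaminergic neurons. It read −1.12, −0.56 and −0.51 in the CH, −0.07, −0.38 and −0.37 in the RPE, and 2.28, 2.10 and 2.17 in the PR. All PR arrays lay far above all others, and all RPE arrays above all CH arrays. *Hdc* was called in favour of the PR over the CH (difference −2.91 for CH minus PR, SE 0.17, FC 7.54, limma B-H adjusted p = 2.65e-07) and over the RPE too (−2.46 for RPE minus PR, SE 0.17, FC 5.49, adjusted p = 1.12e-06). The step between CH and RPE (−0.46, SE 0.17, FC 1.37, adjusted p = 0.0787) was not called. Its Cy5 signal was from 30039 to 55775 in the PR, from 5706 to 7942 in the RPE and from 3451 to 6444 in the CH, unsaturated and well above background throughout, with a reference between 4015 and 4879. Rod markers moved with it. The summed Cy5 signal of the 7 rod markers was from 1893248 to 2799513 in the PR, from 665563 to 873728 in the RPE and from 433719 to 681337 in the CH, and the part of rod RNA in the *Hdc* values of the CH and the RPE was not tested.

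**Figure D2:**
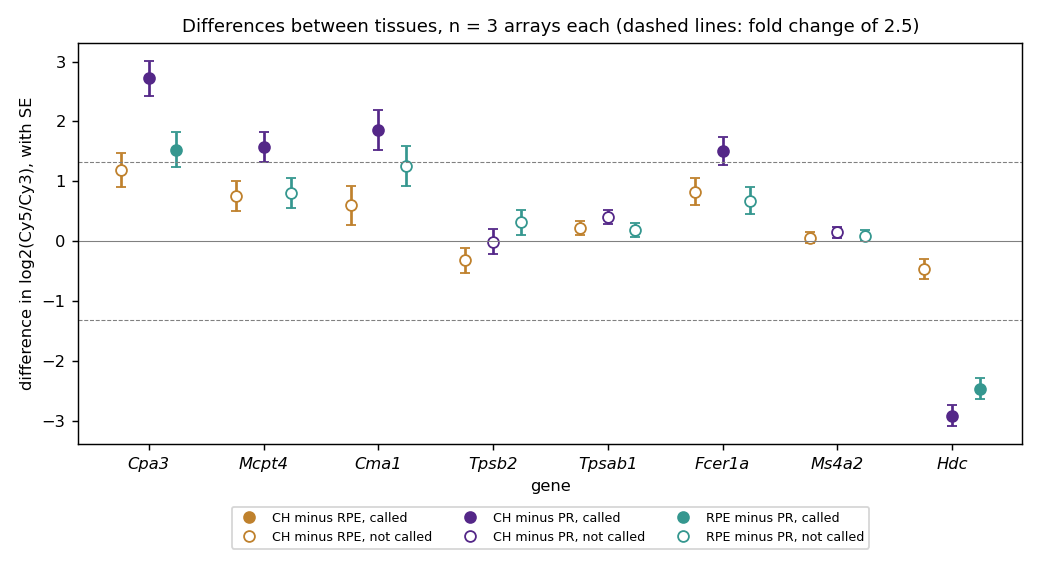
Differences in log2(Cy5/Cy3) between tissues (y axis) for each of the 8 genes (x axis), with the SE of the limma fit and 3 arrays per tissue. Filled symbols passed FC 2.5 and adjusted p 0.01, and dashed lines mark FC 2.5. Purple symbols, CH minus PR, run from 2.72 for *Cpa3* to −2.91 for *Hdc*, and no CH minus RPE symbol is filled.

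Counted by arrays, 3 of the 8 genes (*Cpa3*, *Mcpt4* and *Fcer1a*) had all CH arrays above all RPE arrays, as 19.1% of all genes had, and *Hdc* had all RPE arrays above all CH arrays, as 19.8% of all genes had. All CH arrays lay above all PR arrays for 5 of the 8 genes (28.8% of all genes), and all PR arrays above all CH arrays for *Hdc* (33.6% of all genes). All RPE arrays lay above all PR arrays for 4 of the 8 genes (29.1% of all genes), and all PR arrays above all RPE arrays again for *Hdc* (29.6% of all genes). These counts hold genes with little measured signal: *Fcer1a*, above background on 1 CH array alone, is in all of the counts with the CH or the RPE above, and *Tpsab1*, above background on no CH or PR array, is in that of the CH above the PR. In tissue samples, fewer mast cells and less of these RNAs per cell cannot be told apart. RNA of endothelial and fibroblast markers was also present in the RPE samples. The summed Cy5 signal of endothelial markers was from 146062 to 177142 in the RPE and from 128787 to 183305 in the CH. That of fibroblast markers was from 277623 to 376210 in the RPE and from 904838 to 996270 in the CH. The part of choroid RNA in the RPE values of the 8 genes was not tested.

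Within tissues, *Cpa3*, *Mcpt4*, *Cma1* and *Fcer1a* also rose and fell together, and CH replicate 2 stood above the other choroids in all of them. It exceeded the mean of CH replicates 1 and 3 by 1.03 for *Cma1*, 0.97 for *Cpa3*, 0.85 for *Mcpt4* and 0.78 for *Fcer1a* on the log2 scale. Ranked over all genes, whose median for this lead was 0.00, these leads were at percentiles from 98.7 to 99.3. In the RPE, and in the PR as well, the pattern turned. In the ratio, RPE replicate 2 was below the mean of RPE replicates 1 and 3, by −0.65 for *Cma1*, −0.55 for *Cpa3*, −0.53 for *Mcpt4* and −0.49 for *Fcer1a*, at percentiles from 2.5 to 5.2. In Cy5 alone, not scaled between arrays, RPE replicate 2 was the lowest RPE array for none of these genes. Its signal less background was the highest for *Mcpt4* (911 against 692 and 807) and *Cma1* (1004 against 735 and 777). The same held for *Fcer1a* (271 against 125 and 117, none of them well above background). For *Cpa3* it lay between the others (1205 against 1107 and 1378). RPE replicate 2 was the array with 91.7% of probes above background. It was also the brightest RPE array, with a median Cy5 over all probes of 1534 against 1047 and 991, before background was taken off. The Cy5 values given here were not corrected for this. The Cy3 signal of the reference was higher on slide 3, from 845 to 912 for *Mcpt4* against 734 to 780 on the other slides, and from 1116 to 1167 for *Cma1* against 734 to 960. PR replicate 2, also on slide 3, likewise had the lowest PR ratio for *Cpa3* (−2.51), *Mcpt4* (−1.87), *Cma1* (−2.61) and *Fcer1a* (−1.45, not well above background). The part of the reference, of RPE replicate 2 and of slide 3 in the lower ratios was not tested. CH replicate 2 was the highest choroid for 7 of the 8 genes, against 32.6% of all genes, and for 6 of the 8 RPE replicate 2 was in addition the lowest RPE sample, against 10.1% of all genes. Since *Cpa3*, *Mcpt4*, *Cma1* and *Fcer1a* varied together, these counts are not independent of each other, and the pattern was described after it was seen. Of the 7, *Ms4a2* and *Tpsab1* were well above background on no CH array. Of the 6, *Fcer1a* was well above background on no RPE array. *Tpsab1*, also of the 6, had its highest RPE Cy5 on replicate 2 (430 against 74 and 152). For *Tpsb2*, another of them, Cy3 ran from 447 to 574 on slide 3 and from 761 to 1178 elsewhere.

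CH replicate 2 and RPE replicate 2 were both on slide 3, so the steps differed by slide. Within slide 3, CH minus RPE was 2.20 for *Cpa3*, 1.68 for *Mcpt4*, 1.72 for *Cma1* and 1.68 for *Fcer1a*, with 1 array per tissue. Within slide 2, with 2 arrays per tissue, it was 0.68 for *Cpa3*, 0.30 for *Mcpt4*, 0.04 for *Cma1* and 0.40 for *Fcer1a*. Against the PR, CH replicate 2 differed from PR replicate 2 within slide 3 by 3.58 for *Cpa3*, 2.37 for *Mcpt4*, 2.99 for *Cma1* and 2.15 for *Fcer1a*. With slide 3 left out, an alternative added after the data were seen, only *Cpa3* (2.29, limma B-H adjusted p = 0.00018) and *Hdc* (−3.04, adjusted p = 6e-05) were still called between the CH and the PR. *Mcpt4* then stood at 1.18, *Cma1* at 1.29 and *Fcer1a* at 1.19, each under the fold threshold. Slide and individual eye cannot be told apart for replicate 2.

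**Figure D3:**
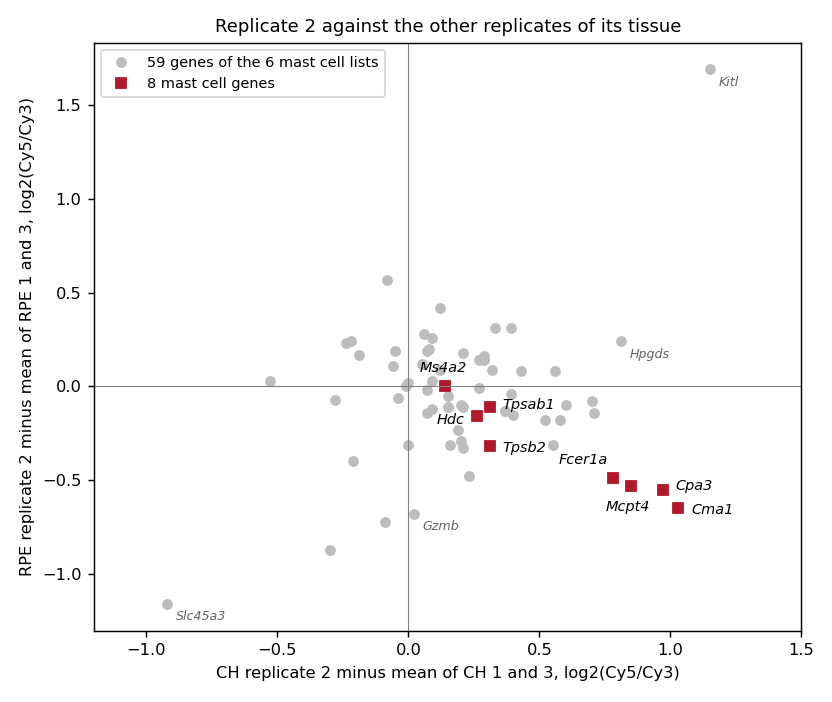
Replicate 2 of the CH against the mean of CH replicates 1 and 3 (x axis) and replicate 2 of the RPE against the mean of RPE replicates 1 and 3 (y axis), in log2(Cy5/Cy3). Red squares are the 8 mast cell genes and grey points 59 other genes of mast cell biology. *Cpa3*, *Mcpt4*, *Cma1* and *Fcer1a* lie together at the lower right, with CH leads of 0.78 to 1.03 and RPE differences of −0.49 to −0.65.

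Over the 9 arrays, Pearson's r was 0.99 between *Cpa3* and *Mcpt4*, 0.97 between *Cpa3* and *Cma1*, and 0.97 between *Cpa3* and *Fcer1a*. After the mean of each tissue was taken off, r was 0.97, 0.94 and 0.83 in the same order. *Tpsab1*, measured on 1 array, had an r of 0.94 with *Cpa3* over the arrays and of 0.96 after the tissue means were taken off. These points share slides, a reference and neighbouring layers of similar eyes, so the values are descriptions. *Tpsb2* did not move with *Cpa3* (0.09), and *Hdc* moved against it over the tissues (−0.88) but not within them (0.53). When 16805 named genes that were well above background on all arrays of a tissue were ranked by r, the genes most like a member included other members. *Mcpt4* came first for *Cma1* (r = 0.973 over 9 arrays), before *Gpr171* and *Prpmp5* (both 0.972). For *Mcpt4* the order was *Il2rb* (0.990), *Cpa3* (0.986) and *Nod2* (0.985), and for *Cpa3* it was *Nod2* (0.991), *Ikzf1* (0.990) and 9330175E14Rik (0.989). Among the genes most like *Hdc* were *Hmgn1* and *Dgke* (both 0.998). For *Tpsb2* they were *Vmn1r-ps84* (0.932), *Nomo1* (0.920) and *Speer4d* (0.903), none of which was called between tissues.

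Other genes of mast cell biology were read from 6 lists of together 59 genes with a probe. Of these, 9 were called higher and 0 lower in the CH against the RPE (1.76% and 0.18% of all genes). In the CH against the PR, 29 were called higher and 0 lower (12.8% and 6.03% of all genes). In the RPE against the PR, 23 were called higher and 1 lower (10.9% and 5.2% of all genes). The same shares stand beside the counts of each list below. At an unadjusted p below 0.05, limma placed 27 of the 59 higher and 5 lower in the CH against the RPE. Against the PR it placed 35 higher and 6 lower in the CH. No share of all genes was taken at this unadjusted threshold, so the shares above do not apply to these counts. The median difference of the 59 genes was 0.24 for CH minus RPE and 1.25 for CH minus PR. Many of these genes are not restricted to mast cells.

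Among 7 other mast cell proteases, 0 were called between CH and RPE by limma (1 had an unadjusted p below 0.05), and *Gzmb*, which encodes granzyme B of cytotoxic cells and mast cells, was called in the CH against the PR. Its difference was 1.86 (SE 0.18, limma B-H adjusted p = 1.37e-05), but no PR array was well above background, so no exact fold is given. The mucosal mast cell chymase *Mcpt2* was not well above background on any array. *Mcpt1*, *Mcpt9* and *Tpsg1* were not well above background on any CH array, and *Cma2*, measured on all arrays, read 0.01, 0.41 and 0.06 in the CH, −0.17, −0.23 and −0.01 in the RPE, and −0.18, −0.42 and −0.23 in the PR.

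Of 13 genes for mast cell growth and identity, 8 were called higher in the CH against the PR and 1 against the RPE. *Kit*, also a gene of melanocytes, read 0.51, 0.67 and 0.65 in the CH, −0.16, −0.21 and −0.31 in the RPE, and −3.70, −3.87 and −4.20 in the PR. The tissues were far apart relative to their spread, with a CH minus PR difference of 4.53 (SE 0.13, limma B-H adjusted p = 4.99e-09), while CH minus RPE (0.83, SE 0.13, adjusted p = 0.00189) did not pass the fold threshold. For *Kit*, CH replicate 2 exceeded the mean of the other choroids by 0.09. *Gata2* differed by 4.31 between CH and PR, *Mitf*, which pigment cells and the RPE need, by 4.57, and the granule membrane protein *Cd63* by 4.62. *Csf2rb*, the shared β chain of the IL-3, IL-5 and GM-CSF receptors, was the gene called against the RPE (difference 1.44, SE 0.14, adjusted p = 0.000236), and it differed by 3.08 from the PR. Its dimmer probe, also well above background on all arrays, gave −0.32 against the RPE and −0.01 against the PR, neither called. *Il3ra* (2.91), the IL-33 receptor *Il1rl1* (2.00) and the Kit ligand *Kitl* (4.19, SE 0.52) completed the genes called against the PR. Other *Il1rl1* probes gave 0.16 (adjusted p = 0.496) and 0.66 (adjusted p = 0.000113, under the fold threshold) against the PR, neither called. The first was well above background on 1 RPE array alone, the second on 0 arrays. *Gata2* and *Il1rl1* were each well above background on 1 of 3 PR arrays, so their PR level was mostly not measured. *Kitl* had the widest spread among them, with an SD of 0.74 in the CH and of 1.14 in the RPE, and replicate 2 was highest in both tissues.

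Of 10 genes for the granule matrix and for loading amines, 4 were called higher in the CH than in the PR. *Slc18a2* encodes the vesicular monoamine transporter that fills granules with histamine. It read 1.37, 2.06 and 1.35 in the CH, −0.59, −1.02 and −1.29 in the RPE, and −2.45, −2.76 and −3.15 in the PR. It was the gene of this list called against the RPE (difference 2.57, SE 0.25, FC 5.92, limma B-H adjusted p = 0.000228), and its other probe gave 2.10 (adjusted p = 0.000237). Among the 59 genes this was the largest difference between CH and RPE, in the direction opposite to that of *Hdc*. *Srgn*, the core protein of the granule proteoglycan serglycin, was higher in the CH than in the PR by 4.80 (adjusted p = 1.33e-08), with 0.49 against the RPE (adjusted p = 0.0694). *Rab27a* (2.61) and *Stxbp2* (1.42), both of the exocytosis machinery, were called in the CH against the PR, and stood lower in the CH than in the RPE by −0.79 and −0.58 without being called. A second *Stxbp2* probe was not called against the PR (0.51, adjusted p = 0.066). *Ext1*, which builds heparan sulfate chains, was the 1 gene of the 59 called in favour of the PR over the RPE (−1.49 for RPE minus PR, adjusted p = 1.51e-06).

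Of 15 genes for signalling from the IgE receptor, 9 were called higher in the CH against the PR and 5 against the RPE. *Fcer1g*, the γ chain that FcεRI shares with other Fc receptors of macrophages and further leukocytes, read 1.39, 1.65 and 1.05 in the CH, −0.09, −0.15 and −0.38 in the RPE, and −2.34, −2.40 and −2.49 in the PR. It was called against the RPE (difference 1.57, SE 0.15, limma B-H adjusted p = 0.000199) and against the PR (3.77, SE 0.15, adjusted p = 2.61e-08). The γ chain was thus measured in every layer while the β chain *Ms4a2* was not above background in any. The kinases *Syk* (1.46) and *Btk* (1.64), the guanine nucleotide exchange factor *Vav1* (1.58) and the adaptor *Lat2* (1.46) were the other genes called against the RPE, with adjusted p-values from 0.000164 to 0.000433. The second probes of *Vav1* (0.63, adjusted p = 0.027) and of *Btk* (0.51, adjusted p = 0.135) were not called against the RPE. *Cd84*, of the same list, was not called at its brightest probe (0.76 against the RPE and 0.04 against the PR). Its dimmer probe, well above background on all arrays, was called higher in the CH against the RPE (1.63, adjusted p = 0.000136). The same probe was called against the PR (2.82, adjusted p = 1.1e-07). In the CH against the PR, *Syk* differed by 3.32, *Vav1* by 3.85, *Plcg2* by 2.85, *Lat2* by 2.10 and *Inpp5d* by 1.90. *Btk* was at least 11.9-fold, *Lyn* at least 3.03-fold and *Lcp2* at least 1.86-fold higher in the CH than in the PR, where none was above background.

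Of 7 genes for lipid mediators, 6 were called higher in the CH against the PR and 2 against the RPE. *Pla2g4a*, the phospholipase that frees arachidonic acid, differed by 1.89 from the RPE (SE 0.16, limma B-H adjusted p = 0.000141) and by 5.06 from the PR (SE 0.16, adjusted p = 8.5e-09). *Ptgs2*, an inducible cyclooxygenase, differed by 1.40 from the RPE (SE 0.30, adjusted p = 0.00836) and was at least 11.2-fold higher than in the PR. *Hpgds*, the prostaglandin D synthase of mast cells and other leukocytes, read 0.04, 0.18 and −1.29 in the CH, −1.48, −1.34 and −1.69 in the RPE, and −1.36, −2.64 and −2.19 in the PR. CH replicate 3 lay apart from the other choroids, just above the RPE arrays, and *Hpgds* was called against the PR (1.70, SE 0.40, adjusted p = 0.00476) but not against the RPE (1.15, adjusted p = 0.07). *Ptgs1* (3.90) and *Ltc4s* (3.07) were called against the PR, and *Alox5* was at least 2.36-fold higher than in the PR.

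Of 7 genes for histamine breakdown and reception with a probe, 1 was called, in the CH against the PR. *Hnmt*, the methyltransferase that inactivates histamine, read −0.55, −0.70 and −0.47 in the CH, 0.22, 0.32 and 0.07 in the RPE, and −3.38, −3.63 and −3.37 in the PR. The RPE lay above the CH (−0.78 for CH minus RPE, SE 0.11, limma B-H adjusted p = 0.0014, under the fold threshold), and both lay far above the PR (2.88 and 3.66, SE 0.11). *Hnmt*, at its lowest in the PR, ran opposite to *Hdc*, at its highest there. No gene for a histamine receptor (*Hrh1*, *Hrh2*, *Hrh3*, *Hrh4*) was called at its brightest probe. Another *Hrh1* probe, well above background on 3 CH arrays, 1 RPE array and 0 PR arrays, was called in the CH against the PR (1.88, adjusted p = 3.01e-07) and gave 1.13 against the RPE (adjusted p = 0.000201), under the fold threshold.

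**Figure D4:**
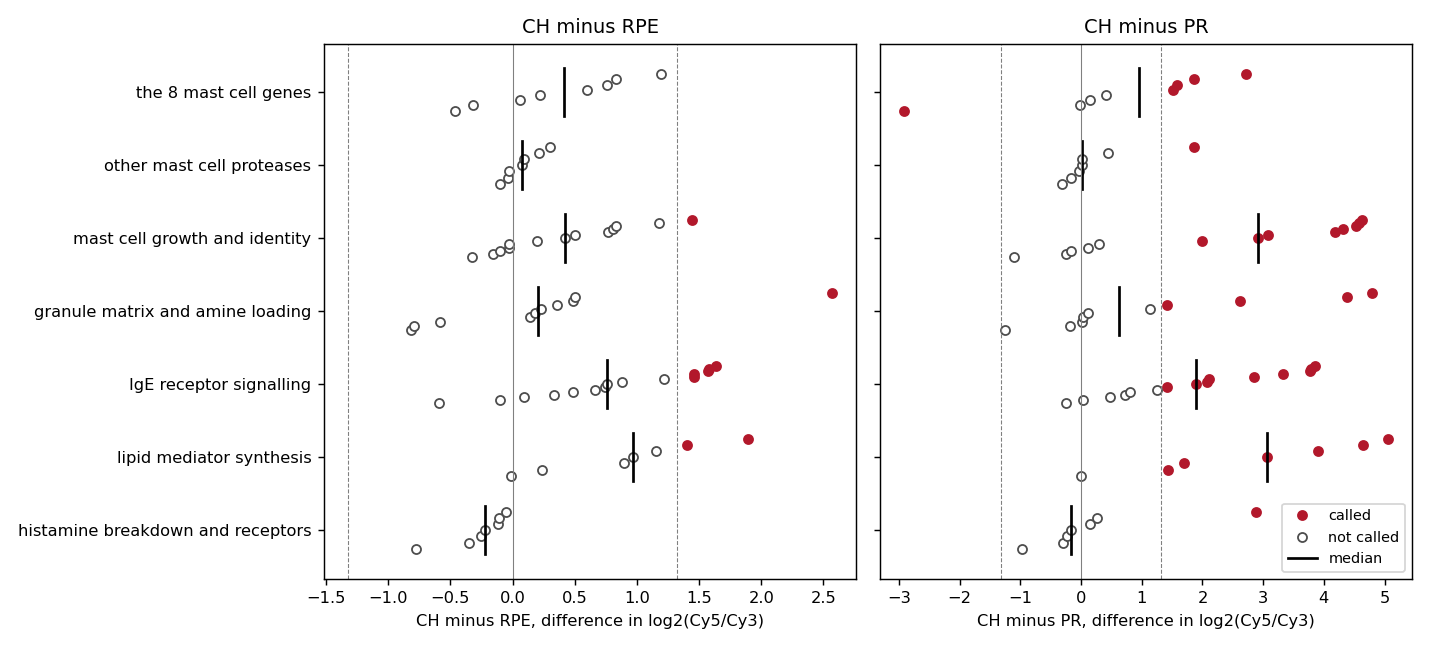
Differences in log2(Cy5/Cy3), CH minus RPE on the left and CH minus PR on the right (x axes), of the 8 mast cell genes and of 6 lists of mast cell biology (rows), 1 point per gene at its brightest probe. Filled points passed FC 2.5 and adjusted p 0.01, dashed lines mark FC 2.5 and black bars are list medians. In CH minus RPE the filled points are 9, all to the right, and none is in the top row.

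Markers of other cell types moved with some of these values. Of the 5 basophil genes 0 were called in any comparison by limma, and 0 had an unadjusted p below 0.05. *Cd200r3* was not well above background on any array, *Mcpt8* on 1 RPE array alone, and *Il13* on 1 RPE and 1 PR array. *Prss34* was on 1 CH, 1 RPE and 2 PR arrays. With so little measured signal, the lack of calls gives no comparison of basophil RNA between tissues. The summed Cy5 signal of the 5 genes was from 1002 to 1088 in the CH and from 839 to 904 in the PR. Of 8 macrophage markers 2 were called higher in the CH against the RPE and 5 against the PR, with a summed Cy5 signal from 231638 to 282115 in the CH, from 221562 to 247082 in the RPE and from 76127 to 106057 in the PR. Fibroblast markers, 6 of 6 called in the CH against the RPE with a median difference of 2.41, summed to 904838 or more in every CH sample, to at most 376210 in the RPE and to at most 59930 in the PR. Of 6 markers of melanocytes and pigment cells 4 were called in favour of the CH over the RPE, with a summed Cy5 signal from 1119630 to 1251916 in the CH and from 736899 to 892768 in the RPE. Of 7 neutrophil markers 1 was, and of 6 muscle markers 0 were by limma, also at an unadjusted p below 0.05. The part of these cells in the values of *Fcer1g*, *Kit* and the other shared genes was not tested.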

How the data were processed

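The authors hybridised amplified tissue RNA (Cy5) against a common reference (Cy3) and deposited the Agilent Feature Extraction 9.5.3.1 output of 9 arrays, in which mean signal and local background are intensities as scanned. The deposited log10 ratio of the software and the authors' series table of log2 values, whose normalization is not given in the sources used here, served as alternatives; the submitters' notes name R 2.14.0 and limma. Background was corrected with normexp (offset 50), log2(Cy5/Cy3) was normalized within arrays by loess, control spots had weight 0, outlier-marked spots were left out and spots of a probe were averaged. A mean per tissue was fitted with limma 3.58.1 in R 4.3.3, and p-values were B-H adjusted over 39429 probes. A gene stands at its brightest probe, named through RefSeq (GRCm38.p6) for 26055 probes by accession and 4124 by symbol or older symbol. Bounds, stated as at least so many fold, set the mean Cy5 signal (after loess and Aquantile) against the lowest signal well above background on each array, and are open to dye bias. The number of arrays limits the precision. The fit was tested on simulated data.

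Named genes are the 8 genes with every probe, the list genes called in the CH against the RPE or the PR, and the 3 genes most correlated with each member that was well above background on all arrays of a tissue; list genes named beyond this rule were chosen after their values were seen. Not every gene chosen by this rule is reported here. The members and the lists were chosen with earlier results of these data known. Alternatives covered background correction, normalization, the series table, the arrays fitted, blocks for replicate number or slide, dim probes, outlier marks, the choice of probe, the variance model, thresholds and each array left out. Figures were made with Python 3.11.15, pandas 2.3.3 and matplotlib 3.10.9.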

Additional observations from a re-analysis of the deposited data

How the results depend on the processing

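Between CH and RPE, 0 of the 8 genes were called under every alternative that kept both thresholds. An adjusted p of 0.05 with FC above 2 called 1 (*Cpa3*), and without a fold threshold 2 (*Cpa3* and *Fcer1a*). Between CH and PR, 5 became 2 without slide 3, an alternative added after the data were seen, and between 3 (without CH replicate 2) and 5 as each array was left out. Between RPE and PR, 2 became 1 with the slide as a block and 5 at adjusted p 0.05 without a fold threshold, and lay between 2 and 3 as each array was left out. The list genes called in the CH against the RPE, 9, became 5 with the series table, 5 without slide 3 and 25 at adjusted p 0.05 without a fold threshold, which gave 39 instead of 24 between RPE and PR. As each array was left out, they were between 6 and 11, between 27 and 31 (CH against PR) and between 24 and 25. The causes were not tested.

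Differences changed sign only for *Ms4a2* and *Tpsb2*. *Ms4a2*, below background everywhere, became -0.12 (Feature Extraction log ratio), -0.21 (median centring) and -0.05 (series table) in CH minus RPE, -0.08 (median centring), -0.17 (Cy5 channel alone) and -0.20 (series table) in CH minus PR, and -0.17 (Cy5 channel alone) and -0.14 (series table) in RPE minus PR. *Tpsb2* became 0.10 within slide 3 in CH minus RPE. In CH minus PR it became 0.15 with median centring or without slide 3, 0.01 with the median of its probes, and from -0.16 to 0.25 as each array was left out. In RPE minus PR it became -0.20 with the slide as a block and -0.42 within slide 3. *Fcer1a* lost its call against the PR with the Feature Extraction log ratio (2.46, limma adjusted p = 0.0151).

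The labels do not say whether same-numbered samples came from the same eye, and with 3 arrays per tissue correlations cannot settle it. Deviations of same-numbered arrays correlated between -0.078 and 0.286, with 4 of 9 pairs above 0.1. Among them were the 3 pairs of replicate 2 (0.164, 0.232 and 0.286), which share slide 3, and RPE 3 with PR 3 (0.285), on different slides. Other-numbered arrays of different tissues correlated between -0.312 and 0.246, with 5 of 18 pairs above 0.1. The replicate block gave 5, 0 and 2 called members in CH against PR, CH against RPE and RPE against PR, as without it, and 8 instead of 9 list genes in CH against RPE. The median of all probes in CH minus PR was -0.055 after loess, -0.112 with median centring and -0.118 in the series table.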
